A study of Mus musculus with 16 samples.

Results

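The data cover 9 genes known for their part in tendon in the RNA of sorted mouse muscle cells: Thbs4, Comp, Tnc, Kera, Fmod, Chad, Tnmd, Scx and Mkx. They were picked by symbol, with their FPKM over the 6 groups already known from earlier work on these files, and all 9 are among the 24341 genes listed per library. Because those values chose them, every level and difference given for the 9 genes is a description without a test.

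The 16 libraries fall into 6 groups, of which p53WT, p53KO, p53WT_3dai and p53KO_3dai hold 3 libraries each, and p53WT_G2 and p53KO_G2 2 each. All came from C57BL/6 mice aged 2 to 3 months, of genotype p53 WT or p53KO, and from cells kept for CD34 and alpha-7 integrin and depleted of CD31, CD11b, CD45 and Sca-1. The 3dai groups were taken from Tibialis Anterior and the other groups from hind limb muscles, so 3dai and muscle cannot be told apart. The labels spell out neither 3dai nor G2, nor how the knockout was made, nor whether replicates are separate animals, so the spread shown may be technical. FPKM (fragments per kilobase of transcript, scaled to the library) lets levels of different genes be compared per length, but the depth behind each value is not known.

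Tendon is built mainly of collagen fibrils, laid down by tenocytes. Scx (scleraxis, a basic helix-loop-helix factor) and Mkx (Mohawk, a homeobox factor) are the transcription factors that guide the tenocyte programme. Tnmd (tenomodulin) is a membrane glycoprotein that marks mature tenocytes and acts downstream of Scx. Small leucine-rich proteoglycans such as Fmod (fibromodulin) and Kera (keratocan) bind collagen and shape its fibrils, and thrombospondins and tenascins link the matrix to cells. Muscle meets tendon at the myotendinous junction, where several of these proteins are deposited.

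RefSeq promoter entries (build GRCm38.p6) were found for 6 of the 9 genes: Thbs4, Tnmd, Kera, Fmod, Chad and Tnc. Shown are the 250 bases before the start of 3 genes that were lowest in 3dai (Thbs4, Tnmd, Fmod) and of Tnc, which was not. They lie at chr13:92794819-92795068 (minus strand), chrX:133850758-133851007 (plus), chr1:134037004-134037253 (plus) and chr4:64047016-64047265 (minus). Capitals mark the E-box CANNTG, the kind of site that basic helix-loop-helix factors such as Scx bind, searched on both strands.
Thbs4: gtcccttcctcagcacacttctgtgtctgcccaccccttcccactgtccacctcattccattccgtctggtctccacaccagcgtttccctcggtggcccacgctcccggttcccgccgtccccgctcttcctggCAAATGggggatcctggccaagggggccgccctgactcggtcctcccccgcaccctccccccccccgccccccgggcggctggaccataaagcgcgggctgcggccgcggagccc
Tnmd: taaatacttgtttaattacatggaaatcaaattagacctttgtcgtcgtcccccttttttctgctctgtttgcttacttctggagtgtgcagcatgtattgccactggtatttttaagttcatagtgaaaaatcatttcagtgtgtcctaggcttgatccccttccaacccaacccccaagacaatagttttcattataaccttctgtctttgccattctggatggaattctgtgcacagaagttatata
Fmod: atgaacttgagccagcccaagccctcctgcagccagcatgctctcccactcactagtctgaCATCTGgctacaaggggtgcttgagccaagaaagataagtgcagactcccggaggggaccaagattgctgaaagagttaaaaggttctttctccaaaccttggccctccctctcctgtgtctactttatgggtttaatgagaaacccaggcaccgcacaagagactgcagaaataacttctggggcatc
Tnc: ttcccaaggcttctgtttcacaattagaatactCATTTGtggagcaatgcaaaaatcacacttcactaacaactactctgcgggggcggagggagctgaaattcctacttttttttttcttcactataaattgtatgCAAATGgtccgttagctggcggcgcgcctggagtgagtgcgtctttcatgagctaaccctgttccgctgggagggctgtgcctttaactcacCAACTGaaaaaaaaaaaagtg
The E-box CANNTG occurred once before Thbs4, Fmod and Chad, 3 times before Tnc and 0 times before Tnmd and Kera, while 66.2% of 32851 RefSeq promoters of this length hold at least 1. The letters TATAAA, on either strand, occurred once each before Chad and Tnc, and 12.4% of promoters hold them. The p53 half-site occurred in 0 of the 6, and 7.13% of promoters hold it. These matches describe letters in a short window and say nothing of binding.

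The genotype labels were followed by Trp53, which stood at 39.9 to 161 FPKM in the p53WT libraries and at 6.34 to 45.7 in the p53KO libraries, lower with p53KO in every library of the same suffix. Markers of muscle stem cells (Pax7, Myf5, Vcam1, Calcr, Itga7, Cd34, Sdc4 and Cdh15) summed to between 573 and 2509 FPKM. Of genes the sort selects against, Ly6a (Sca-1) reached at most 6.60 FPKM, Pecam1 (CD31) 2.09, Itgam (CD11b) 0.286 and Ptprc (CD45) 0.00898. Macrophage markers (6 genes) summed to at most 16.9 FPKM. Sums of all FPKM ran from 423303 to 616485, and 10240 to 11574 genes reached 1 FPKM. Cartilage markers (Acan, Col2a1, Matn1, Matn3, Hapln1 and Col9a1) summed to at most 3.10 FPKM in any library, although Comp and Chad are also known from cartilage.

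Thbs4, a pentameric thrombospondin of the matrix at muscle and tendon attachments, was the highest of the 9 genes in the groups with no suffix. The p53WT libraries gave 124, 149 and 270 FPKM, and those of p53KO 229, 201 and 115. The G2 libraries gave 308 and 355 with p53WT_G2, but 153 and 145 with p53KO_G2. The 3dai libraries gave 11.5, 10.7 and 10.9 with p53WT_3dai, and 17.9, 2.90 and 3.94 with p53KO_3dai. Every 3dai library lay below every other library, and the group mean with no suffix was 16.4 times that in 3dai in p53WT and 22.0 times in p53KO. The p53WT_G2 pair stood above all other libraries, and p53KO_G2 overlapped the groups with no suffix.

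Comp, the cartilage oligomeric matrix protein and also a thrombospondin, was much lower but lay in a similar order. For Comp the p53WT libraries read 4.21, 11.4 and 13.6 FPKM, those of p53KO 12.3, 8.61 and 10.9. The 3dai values were 0, 1.30 and 2.00 for p53WT_3dai and 1.52, 1.66 and 0 for p53KO_3dai, and those of G2 were 5.48 and 7.00 with p53WT_G2 and 3.02 and 1.06 with p53KO_G2. The 3dai libraries lay below all libraries with no suffix, p53WT_G2 overlapped p53WT, and p53KO_G2 overlapped 3dai.

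**Figure D1:**
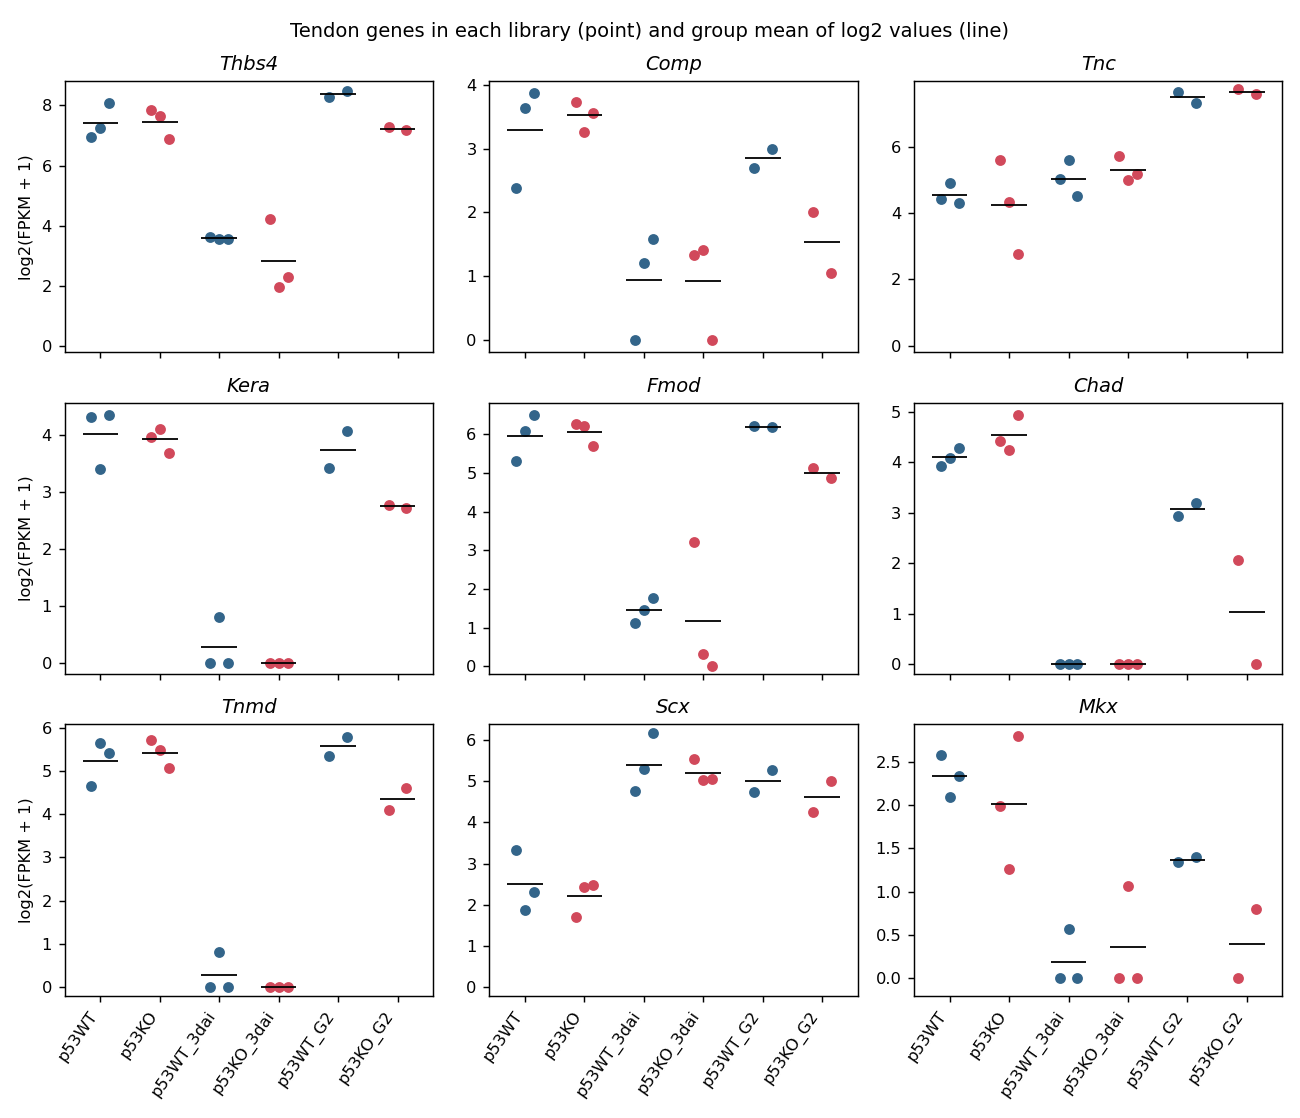
Levels of the 9 tendon genes as log2(FPKM + 1) in each of 16 libraries (points; blue p53WT, red p53KO) with the mean of the log2 values per group (lines). Of the 9, 7 have their lowest means in the 3dai groups, Scx is lowest in the groups with no suffix, and Tnc is highest in both G2 groups.

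Fmod, which regulates the thickness of collagen fibrils, was the highest of the 3 leucine-rich proteoglycans. Fmod stood at 39.0, 66.6 and 89.4 FPKM with p53WT, 76.3, 73.8 and 51.0 with p53KO, 73.3 and 72.0 in p53WT_G2 and 34.1 and 28.1 in p53KO_G2. In 3dai its values were 1.17, 1.76 and 2.39 in p53WT_3dai and 8.32, 0.252 and 0 in p53KO_3dai. The mean with no suffix was 36.6 times that in 3dai in p53WT, and p53KO_G2 lay below all libraries of the groups with no suffix and of p53WT_G2.

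Kera, a keratan sulfate proteoglycan best known from cornea and also made in tendon, was listed at 0 in 5 of the 6 libraries of 3dai and at 0.745 FPKM in p53WT_3dai replicate 2. Elsewhere Kera stood at 18.8, 9.48 and 19.3 FPKM with p53WT, 14.6, 16.2 and 11.9 with p53KO, 9.69 and 15.7 in p53WT_G2, and 5.81 and 5.59 in p53KO_G2. Both p53KO_G2 values lay under every value of the groups with no suffix and of p53WT_G2.

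Chad (chondroadherin), a leucine-rich protein that binds collagen and integrin, was listed at 0 in all 6 libraries of 3dai. The p53WT libraries read 14.2, 16.1 and 18.6 FPKM, and those of p53KO 20.5, 18.0 and 29.7. Its G2 values were 6.68 and 8.15 in p53WT_G2 and 3.20 and 0 in p53KO_G2. The libraries with no suffix thus lay above all others, followed by p53WT_G2. Chad lies on the plus strand of chromosome 11 (94565047 to 94569127, GENCODE M21, mm10) inside Acsf2, an acyl-CoA synthetase gene on the minus strand, and shares 0 exon bases with it. The library kit keeps strand, but the sources used here do not say whether quantification used it, so reads of the 2 genes may not have been told apart. Both carry 1 joint locus. Acsf2 reached at most 6.67 FPKM, below Chad in every library with no suffix. In p53KO_G2 Acsf2 stood at 0 and 3.80, where Chad stood at 3.20 and 0. Acsf2 was also lower in 3dai, at means of 0.494 against 2.97 in p53WT and 0.624 against 5.22 in p53KO. Whether reads from Acsf2 entered the Chad value was not tested.

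Tnmd was listed at 0 in 5 of the 6 libraries of 3dai and at 0.752 FPKM in p53WT_3dai replicate 2. Otherwise Tnmd stood at 24.1, 48.9 and 41.5 FPKM with p53WT, 51.7, 44.1 and 32.4 with p53KO, 39.7 and 54.3 in p53WT_G2, and 16.1 and 23.1 in p53KO_G2. p53KO_G2 was again below every library of the groups with no suffix and of p53WT_G2.

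Mkx had the lowest group means of the 9 genes with no suffix. Mkx stood at 4.98, 3.27 and 4.03 FPKM with p53WT, 2.97, 1.39 and 5.93 with p53KO, 1.53 and 1.63 in p53WT_G2, and 0 and 0.739 in p53KO_G2. In 3dai it reached 0.481 FPKM in p53WT_3dai replicate 2 and 1.10 in p53KO_3dai replicate 2, and was listed at 0 in the other libraries. Values of 3dai and p53KO_G2 overlapped and lay below all libraries with no suffix.

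Scx went the other way from most of the 9 genes. The p53WT libraries had 9.01, 2.68 and 3.94 FPKM, those of p53KO 2.25, 4.44 and 4.55. The p53WT_3dai libraries had 26.0, 38.0 and 70.4, those of p53KO_3dai 45.4, 31.6 and 32.0. In G2 Scx was at 25.5 and 37.3 in p53WT_G2 and 18.1 and 31.0 in p53KO_G2. All 10 libraries of 3dai and G2 lay above the 6 with no suffix. The group mean in 3dai was 8.61 times that with no suffix in p53WT and 9.70 times in p53KO, and in G2 it was 6.03 and 6.55 times. The 3dai and G2 groups overlapped.

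The Scx values carry a limit of position. In GENCODE M21 the gene lies on the plus strand of chromosome 15 (76457452 to 76459458, mm10) wholly inside Bop1, a ribosome biogenesis gene on the minus strand, with 0 exon bases shared. The files give both 1 joint locus, together with Mroh1 and Mir6954. Bop1 stood at 14.3 to 29.4 FPKM in the libraries with no suffix, 70.7 to 88.6 in 3dai and 32.3 to 41.8 in G2. It was thus also higher in 3dai and G2 than with no suffix. In G2, Scx overlapped its 3dai values, while Bop1 lay between no suffix and 3dai without overlap. Whether reads from Bop1 entered the Scx value was not tested.

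**Figure D2:**
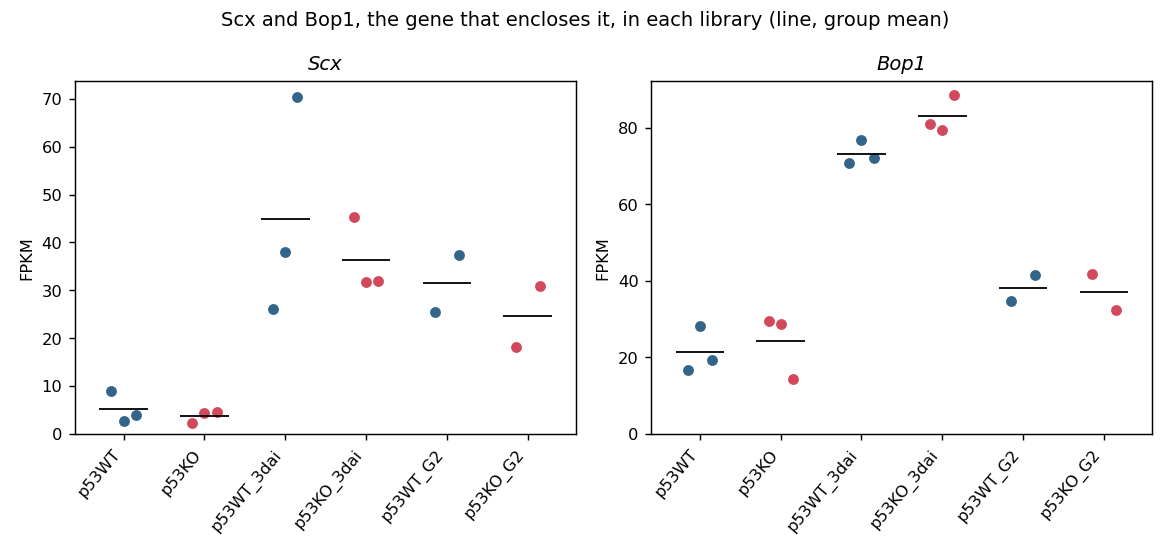
FPKM of Scx and of Bop1, the gene that encloses it on the other strand, in each library (points; blue p53WT, red p53KO) with group means (lines). Scx is at 2.25 to 9.01 FPKM with no suffix and 18.1 to 70.4 elsewhere, and Bop1 is highest in 3dai at 70.7 to 88.6.

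Tnc (tenascin C), a matrix protein of developing and injured tendon and muscle that also appears in other injured tissues, was distinct in G2. It stood at 201 and 161 FPKM in p53WT_G2 and 213 and 193 in p53KO_G2. With no suffix Tnc was at 20.6, 29.1 and 18.8 for p53WT, and at 47.9, 19.2 and 5.79 for p53KO. Its 3dai values were 31.5, 47.3 and 21.7 in p53WT_3dai and 51.6, 30.9 and 34.9 in p53KO_3dai. The 4 G2 libraries lay above the other 12, and 3dai overlapped no suffix in both genotypes. The group mean in G2 was 7.92 times that with no suffix in p53WT and 8.35 times in p53KO.

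How did the 9 genes differ between 3dai and no suffix? On the log2(FPKM + 1) scale the differences in p53WT were -4.96 (SE 0.31) for Tnmd, -4.52 (SE 0.59) for Fmod, -4.10 (SE 0.40) for Chad and -3.84 (SE 0.45) for Thbs4. They were -3.75 (SE 0.33) for Kera, -2.37 (SE 0.50) for Comp and -2.15 (SE 0.41) for Mkx, against 2.90 (SE 0.40) for Scx and 0.49 (SE 0.50) for Tnc. In p53KO the 7 genes ran from -5.42 (Tnmd) to -1.66 (Mkx), Scx was at 3.00 and Tnc at 1.06. The last value rests on single libraries, with 0.32 without p53KO replicate 3 and 1.74 without p53KO replicate 1. The median of the 9 was -3.75 in p53WT and -3.92 in p53KO, beside 0.23 and 0.14 over all 12954 genes tested. A call here is an adjusted p under 0.05 by limma with Benjamini-Hochberg adjustment over all genes tested. By that rule 7 of the 9 were lower and 1 higher in each genotype, where 20.9% and 22.7% of all genes were called lower and 31.8% and 30.4% higher. Without overlap of the groups 7 were lower in each genotype, as 24.1% and 24.9% of all genes were, and 1 higher, as 35.6% and 33.8% were. Since the values of these groups were known when the genes were picked, nothing is read from those counts. The scale understates changes of genes that are low or listed at 0, and in bulk RNA fewer cells of a type and less RNA per cell cannot be told apart.

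Markers of several other cell types were also lower in 3dai. Fibro-adipogenic progenitor markers (7 genes) summed to 281 to 409 FPKM with no suffix and 1.27 to 17.2 in 3dai, where Pi16 was at 0. Dpt carried most of that sum (248 to 369 FPKM with no suffix), while Pdgfra and Dpp4 were at most 1.00 and 0.721 there, and Ly6a was at 0 to 2.79 there and 0 to 6.60 in 3dai. Schwann cell markers (7 genes) summed to 545 to 661 and 16.4 to 59.4 in the same order, and pericyte and smooth muscle markers (8 genes) to 365 to 957 and 19.6 to 53.6, with Kcnj8 at 0 in 3dai. Endothelial markers (6 genes) summed to 16.8 to 27.1 and 0.281 to 2.72. Most of the sum with no suffix came from Tek (12.4 to 18.9) and Cdh5 (4.23 to 7.52). Pecam1 and Kdr, at 0 in 3dai, were at most 2.09 and 0.537 with no suffix. Muscle stem cell markers summed to 1760 to 2509 and 573 to 659, most of it from Sdc4 with no suffix (1114 to 1750 FPKM, against 111 to 150 in 3dai), while Itga7 was higher in 3dai (181 to 226 against 81.1 to 92.3). Mature fibre markers overlapped (17.6 to 63.8 and 21.3 to 55.5), as did macrophage markers within p53KO (0.508 to 11.1 and 2.02 to 8.18). Within p53WT macrophage markers were lower in 3dai without overlap (5.56 to 16.9 and 0.292 to 4.79). The part of these cells in the tendon gene values was not tested. In p53KO_3dai, replicate 1 stood above the other libraries of its group in Thbs4 and Fmod, and also in Schwann cell (59.4 FPKM) and pericyte markers (53.6). That library was not the highest in progenitor markers (12.4, against 17.2 in replicate 2), and was the lowest in macrophage markers (2.02). Tnmd, Kera and Chad were listed at 0 in it.

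**Figure D3:**
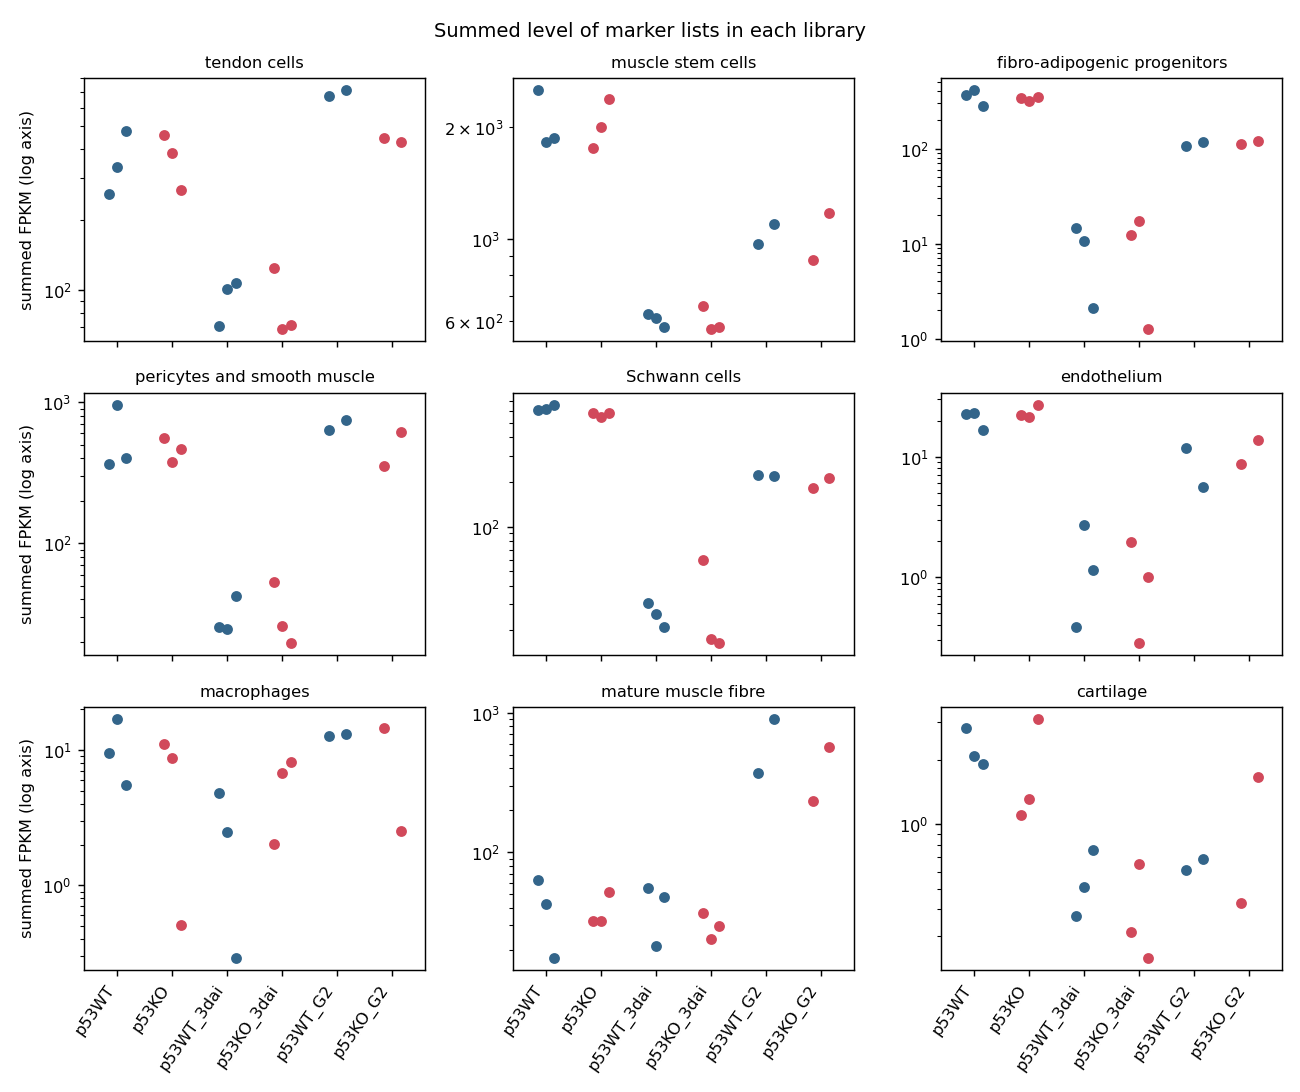
Summed FPKM of each marker list on a log axis in each library (points; blue p53WT, red p53KO). The tendon, muscle stem cell, progenitor, pericyte, Schwann cell and endothelial sums are lowest in the 3dai groups, and cartilage markers stay at or under 3.10 FPKM.

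How did the 9 genes differ between G2 and no suffix? In p53WT the differences were 2.95 (SE 0.55) for Tnc and 2.49 (SE 0.45) for Scx, 0.95 (SE 0.50) for Thbs4 and 0.34 (SE 0.35) for Tnmd. They were 0.24 (SE 0.66) for Fmod, -0.27 (SE 0.37) for Kera, -0.45 (SE 0.56) for Comp, -0.97 (SE 0.46) for Mkx and -1.04 (SE 0.45) for Chad. In p53KO they were 3.43 (SE 0.55) for Tnc and 2.42 (SE 0.45) for Scx, and ran from -3.50 (Chad, SE 0.45) to -0.23 (Thbs4, SE 0.50) for the other 7. The median of the 9 was 0.24 in p53WT and -1.08 in p53KO, beside 0.33 and 0.31 over all genes. Calls were 2 higher and 0 lower of 9 in p53WT, where 22.1% and 5.39% of all genes were called, and 2 higher and 5 lower in p53KO, where 22.5% and 7.06% were. With median-of-ratios scaling, which moves the median of all genes by -0.33 in p53WT and -0.34 in p53KO, Tnmd and Fmod in p53WT turned to -0.09 and -0.19. Without overlap, 3 of the 9 were higher (41.0% of all genes) and 2 lower (15.1%) within p53WT, while 2 were higher (37.4%) and 6 lower (14.7%) in p53KO. The 5 lower calls in p53KO depended on the settings: 1 was called lower with a pseudocount of 0.1 (733 of all genes) and 2 without p53KO_G2 replicate 1 (426 of all genes). The G2 and 3dai comparisons share the libraries with no suffix. Between no suffix and G2, mature fibre markers went from 17.6 to 63.8 FPKM to 234 to 899. Progenitor markers went from 281 to 409 to 106 to 121, and Schwann cell markers from 545 to 661 to 181 to 222. In G2 most of the fibre sum came from Acta1 and Tnnt3. Acta1 was at 168 to 660 there against 4.35 to 25.8 with no suffix, and Tnnt3 at 46.9 to 174 against 5.57 to 23.2. Myh1 was also higher (6.35 to 22.5 against 0.265 to 2.11), but Myh2 and Myh7 reached at most 0.810 and 1.39. Dpt carried most of the progenitor sum (77.7 to 113 in G2). Pdgfra was at 0.296 to 1.00 with no suffix and 0.622 to 2.44 in G2. The part of these markers in the tendon gene values was not tested.

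**Figure D4:**
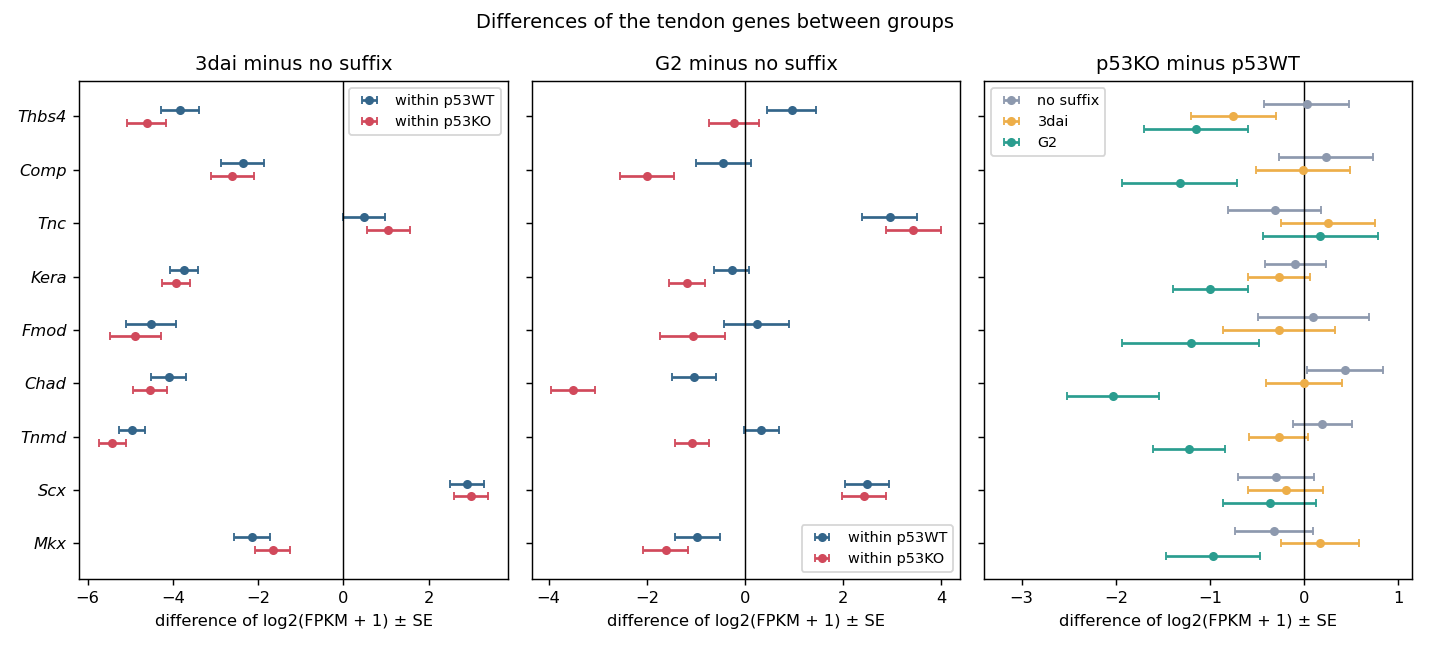
Differences of the 9 genes in log2(FPKM + 1) with the SE of the fit (bars): 3dai minus no suffix, G2 minus no suffix, and p53KO minus p53WT within each suffix. Scx lies to the right of 0 in both left panels, and in the right panel the G2 values of 7 genes lie between -2.03 and -0.97.

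How did p53KO and p53WT cells differ? With no suffix the 9 differences ran from -0.32 (Mkx) to 0.43 (Chad), their median was 0.03 beside 0.01 over all genes, and the libraries of both genotypes overlapped for each gene, where 3.99% of all genes lay higher and 2.74% lower without overlap. In 3dai they ran from -0.75 (Thbs4, SE 0.45) to 0.25 (Tnc, SE 0.50), with a median of -0.20 beside -0.02, and again overlapped, where 5.07% of all genes lay higher and 6.91% lower without overlap. Calls were 0 of 9 in both, where 0.00772% and 0.0849% of all genes were called, and 0 of the 9 had an unadjusted p under 0.05. Leaving out 1 library moved the 3dai difference of Thbs4 between -1.45 and -0.32 and that of Fmod between -1.29 and 0.32. The lower ends are without p53KO_3dai replicate 1, when 2 of the 9 were called lower where 512 of all 12954 genes were called.

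In G2 both p53KO_G2 libraries lay below both p53WT_G2 libraries for 7 of the 9 genes, where 16.1% of all genes did so. These were the values in view when the genes were picked, and nothing is read from that count. The differences were -2.03 (SE 0.49) for Chad, -1.32 (SE 0.61) for Comp, -1.22 (SE 0.38) for Tnmd and -1.21 (SE 0.73) for Fmod. They were -1.15 (SE 0.55) for Thbs4, -0.99 (SE 0.40) for Kera and -0.97 (SE 0.50) for Mkx. For Thbs4, Tnmd, Kera and Fmod the p53WT_G2 mean was 2.23, 2.40, 2.22 and 2.34 times the p53KO_G2 mean, and for Comp 3.06 times. Scx (-0.37, SE 0.49) and Tnc (0.17, SE 0.61) overlapped between the genotypes. The median of the 9 was -1.15 beside -0.01 over all genes, and 0 of 9 were called (4 at an unadjusted p under 0.05) where 0.0695% of all genes were. Leaving out 1 library moved the difference of Chad between -3.07 (without p53KO_G2 replicate 1, when 1 of the 9 and 4 of all 12954 genes were called) and -0.996 (without p53KO_G2 replicate 2), and that of Comp between -1.80 and -0.84.

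Other cell markers were measured beside the G2 values. Pericyte and smooth muscle markers summed to 639 and 744 FPKM in p53WT_G2 against 350 and 614 in p53KO_G2, also without overlap. Schwann cell markers, at 220 and 222 against 181 and 212, did not overlap either, and progenitor markers were at 106 and 117 against 111 and 121. Muscle stem cell markers were at 968 and 1096 against 874 and 1170, and mature fibre markers at 368 and 899 against 234 and 566. Their part in the tendon gene differences was not tested. The differences between the genotype effect in G2 and with no suffix ran from -2.46 (Chad) to 0.49 (Tnc), with 0 of the 9 called by limma's interaction test (2 at an unadjusted p under 0.05) where 0.0232% of all genes were.

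Which other genes followed the 9 most closely? Likeness was the mean absolute difference between log2(FPKM + 1) values, each centred on its own mean, over the 16 libraries, and it describes these libraries only. Nearest to Thbs4 were Col1a1, the main collagen chain of tendon (0.26), and Cilp, a cartilage and tendon matrix protein (0.42). Nearest to Kera were Col22a1, a collagen of the myotendinous junction (0.24), and Sulf1, a heparan sulfatase (0.28). Nearest to Tnmd were Kcne4, a potassium channel subunit (0.40), and Lrrc32, a receptor for latent TGF-beta (0.42), and to Fmod Has1, a hyaluronan synthase (0.36), and Fgl2, a fibrinogen-like protein (0.39). Nearest to Chad were Cpxm2, a carboxypeptidase-like protein (0.35), and Pde7b, a phosphodiesterase (0.36), and to Comp Nr4a2, a nuclear receptor (0.37), and S100b, a Schwann cell marker (0.39). Scx was nearest to Gpsm2, a spindle orientation protein (0.29), and Mamstr, a cofactor of MEF2 (0.32), and Tnc to Ecm1, an extracellular matrix protein (0.31), and Layn, a hyaluronan receptor (0.43). Among the 9 themselves the nearest pair was Thbs4 and Fmod (0.40) and the farthest Tnmd and Scx (3.29).

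Related genes outside the 9 were counted in 5 lists of 63 genes present in the files, of which 55 passed the filter. Of these, 1 (Lum, lumican) is also among the progenitor markers. In 3dai against no suffix 41 of the 55 fell and 4 rose within p53WT, while 40 fell and 3 rose within p53KO, by limma at an adjusted p under 0.05 over all genes. All genes were called lower at 20.9% and 22.7% and higher at 31.8% and 30.4%. The median of the 55 was -2.12 in p53WT and -2.11 in p53KO. Some of the 55 passed the filter only through groups where they were high. Omd and Cilp2 were listed at 0 in every 3dai library, and Podnl1 in every library with no suffix. Each could thus differ in 1 direction only, so the counts over the 55 are a description. The p values printed for genes named from the lists belong to genes picked for their large called changes, so they too are descriptive.

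Among other leucine-rich proteoglycans 9 of 13 fell in each genotype. Prelp, which anchors basement membranes, was at 77.5 ± 15.5 FPKM in p53WT and fell to 1.11 ± 1.23 in p53WT_3dai (SD, n = 3 each, log2 difference -5.38 with SE 0.39, limma adjusted p = 3.64e-08) and fell in p53KO (log2 difference -5.49). Ogn (osteoglycin) fell in both (-4.08 and -4.77). Podnl1, a podocan-like protein, rose from 0 in all 6 libraries with no suffix to 18.3 ± 4.20 in p53WT_3dai and 19.9 ± 3.12 in p53KO_3dai, and Tsku (tsukushi) rose by 1.62 in p53WT (limma adjusted p = 0.036, or 0.0867 with median-of-ratios scaling). Of other thrombospondins and tenascins 3 of 4 fell in each genotype, with Tnxb (tenascin X) at -4.99 and -5.31 and Thbs2, a matricellular thrombospondin, at -4.35 and -4.18.

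Of the tendon collagens 9 of 10 fell in p53WT and 8 of 10 in p53KO. Col1a1 was at 93.5 ± 48.6 FPKM in p53WT and fell to 5.39 ± 0.536 in p53WT_3dai (SD, n = 3 each, log2 difference -3.77 with SE 0.42, limma adjusted p = 2.65e-06). It also fell in p53KO (-4.67), and Col22a1 fell in both (-3.84 and -3.90). Of 13 other matrix and secreted genes 11 fell in each genotype, among them Postn (periostin, -3.72 and -4.59) and Cilp (-3.50 and -4.81).

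Of 15 regulators 9 fell and 2 rose in each genotype. Egr1, a zinc finger factor that can induce tendon genes and an immediate early gene, was at 1251 ± 588 FPKM in p53WT and fell to 11.2 ± 2.27 in p53WT_3dai (SD, n = 3 each, log2 difference -6.57 with SE 0.56, limma adjusted p = 1.87e-07). It fell in p53KO as well (-4.91), and its relative Egr2 fell in both (-5.19 and -5.63). Etv4, an ETS factor of FGF signalling, rose by 1.86 and 2.80.

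**Figure D5:**
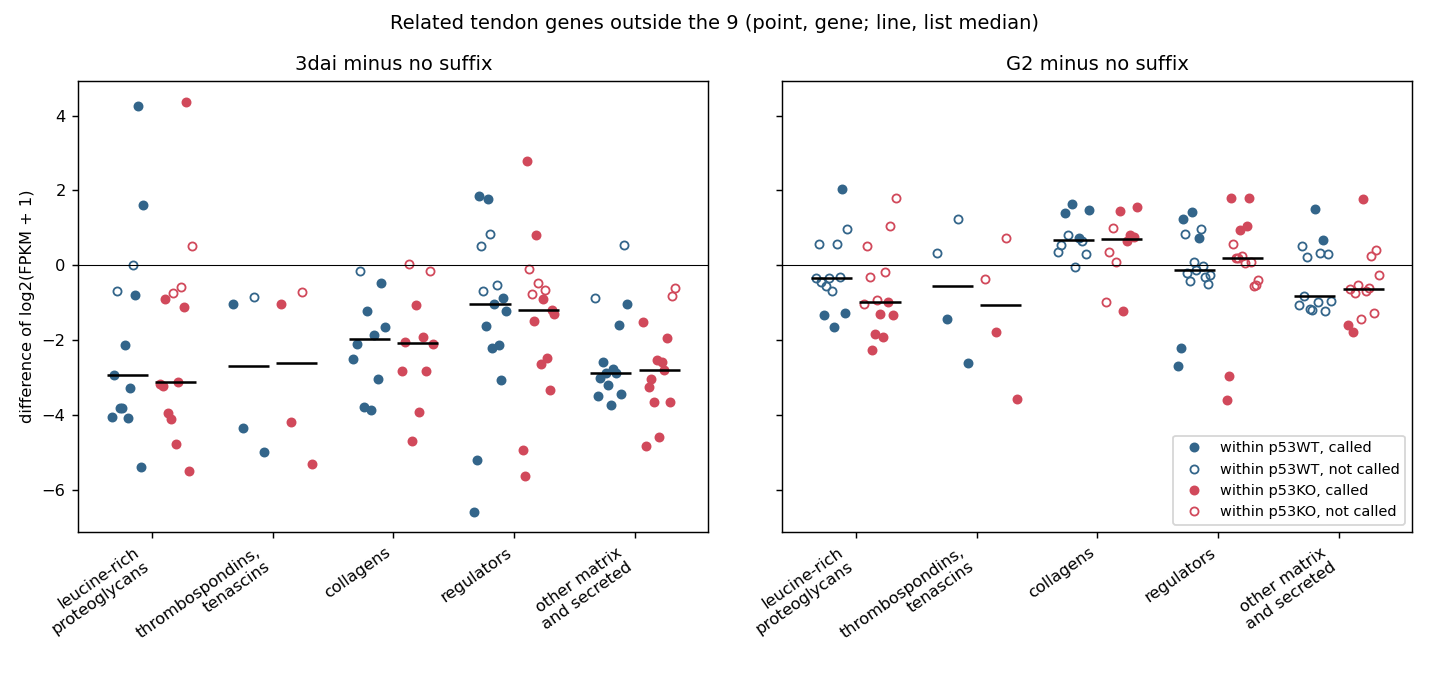
Differences in log2(FPKM + 1) of the 55 related genes by list (points; filled where limma's adjusted p is under 0.05) with list medians (lines), for 3dai and G2 each minus no suffix. Medians in 3dai lie between -3.11 and -1.02, and in G2 those of the collagens are 0.69 and 0.70, above those of the other lists.

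In G2 against no suffix the related genes split. Of the 55, 10 rose and 7 fell in p53WT and 10 rose and 13 fell in p53KO, where all genes were called higher at 22.1% and 22.5% and lower at 5.39% and 7.06%. With median-of-ratios scaling 5 were called higher and 11 lower within p53WT, but 4 higher and 20 lower within p53KO, and over all genes the split moved from 2868 higher and 698 lower to 1645 and 1521 in p53WT, and from 2916 and 914 to 1587 and 1635 in p53KO. Without p53WT_G2 replicate 1 or 2 the calls in p53WT were 7 and 8 in all, and without p53KO_G2 replicate 1 or 2 those in p53KO were 14 and 15. Col1a2, the partner chain of Col1a1, was at 143 ± 60.0 FPKM in p53WT and rose to 424 ± 33.7 in p53WT_G2 (SD, n = 3 and 2, log2 difference 1.64 with SE 0.27, limma adjusted p = 0.000446) and by 1.45 in p53KO, and Col5a3 rose by 1.47 and 1.57. Of 10 collagens 4 rose in p53WT, and 5 rose and 1 fell in p53KO, the latter Col22a1 (-1.23). With median-of-ratios scaling 3 rose in p53WT, and 2 rose and 2 fell in p53KO. Of 4 thrombospondins and tenascins 2 fell in each genotype, Tnxb (-2.59 and -3.57) and Thbs2 (-1.44 and -1.77).

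Among proteoglycans 1 of 13 rose and 3 fell in p53WT, and 0 rose and 6 fell in p53KO. The riser, named after its values were seen, was Podnl1, listed at 0 in p53WT and at a mean of 3.33 FPKM in p53WT_G2. Dcn (decorin), the most abundant proteoglycan of tendon, was at 448 ± 45.8 FPKM in p53WT and fell to 177 ± 1.80 in p53WT_G2 (SD, n = 3 and 2, log2 difference -1.33 with SE 0.31, limma adjusted p = 0.00525). It fell in p53KO too (-2.25), and Omd (osteomodulin) fell in both (-1.64 and -1.92). Of 15 regulators 3 rose and 2 fell in p53WT and 4 rose and 2 fell in p53KO, but with median-of-ratios scaling 1 rose and 4 fell, and 2 rose and 4 fell. Egr1 (-2.69 and -3.60) and Egr2 (-2.20 and -2.94) fell in both. Etv4 rose by 1.25 and 1.80, and Tgfb1, a growth factor that promotes tendon matrix, rose by 1.79 in p53KO. In p53WT_G2 Tgfb1 also lay above p53WT without overlap (29.3 and 30.5 FPKM against 13.0 to 16.5), where 41.0% of all genes did so. Of 13 other matrix and secreted genes 2 rose in p53WT, Postn (1.51) and Sparc, a collagen-binding glycoprotein (0.67). In p53KO Postn rose (1.79) and 2 of the 13 fell, Cilp2 (-1.79) and, named after its values were seen, Angptl7, an angiopoietin-like protein (-1.58). With median-of-ratios scaling 0 of the 13 rose and 2 fell in p53WT, and 0 rose and 5 fell in p53KO. With median-of-ratios scaling Postn (limma adjusted p = 0.139 and 0.0637), Sparc in p53WT (0.31) and Etv4 in p53WT (0.0796) were not called.

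Between genotypes 0 of the 55 related genes were called by limma with no suffix, in 3dai or in G2, and 0, 5 and 7 had an unadjusted p under 0.05. Their medians were 0.09, -0.08 and -0.12, and in G2 17 of the 55 lay lower in p53KO_G2 without overlap and 4 higher, where 16.1% and 15.0% of all genes did so. Without p53KO_3dai replicate 1, 7 were called in 3dai, 1 higher and 6 lower, where 512 of all 12954 genes were called, 41 higher and 471 lower.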

How the data were processed

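RNA of 16 libraries was used as deposited. The authors deposited 1 table of FPKM per library; per the submitters' processing notes the tools were STAR, Cufflinks and Cuffdiff and the build mm10. Their versions, the annotation and the use of strand could not be learned from the labels. Libraries were, per the labels' protocols, made with a directional kit. The lower and upper bounds in the files equal the FPKM for all but 22 to 36 genes per library and give no interval. The 9 genes carry the status OK in every library.

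Genes reaching 1 FPKM in 2 or more libraries were kept (12954, all 9 among them), values were set on the scale log2(FPKM + 1), and the 6 groups were fitted together with limma 3.58.1 in R 4.3.3 with a variance trend. Of the 9, Tnmd, Kera and Chad passed the filter only through libraries outside 3dai. Mkx reached 1 FPKM in just 1 library of 3dai, so it too needed libraries outside 3dai to pass. Counts over the 9 are therefore no support. The 9 genes, the lists and the tests were chosen with earlier results of these data known. From each list the 2 largest called rises and falls with a group mean of 5 FPKM are named, except 1 gene that is not reported here; likeness is given for members reaching that mean. One listed symbol, Cnmd, is in the files under its older name Lect1. Alternatives were another pseudocount, filters, scalings, array weights, a fit of the groups compared, the replicate number, and each library left out.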

Additional observations from a re-analysis of the deposited data

Results flagged for a closer look

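Sparc, a collagen-binding glycoprotein, was higher in every p53KO than in every p53WT library with no suffix (log2 difference 0.226) and lower in every p53KO_G2 than in every p53WT_G2 library (-0.186). Its FPKM was 497, 410 and 485 against 393, 397 and 395, and 564 and 543 against 636 and 623. The test of the difference between the effects, limma's interaction, did not pass (-0.41, SE 0.23, adjusted p = 1).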

How the results depend on the processing

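The p values measure only the spread between these libraries, groups of 2 or 3 limit what can be called, and values near 0 depend on the pseudocount. Of 902 recomputed log2 differences of the 9 genes 32 moved by more than the spread between replicates, and 0 called ones changed sign. The 32 came with a pseudocount of 0.1 (17), median-of-ratios scaling (8) and quantile normalization (7). Many of the 902 could not move by this rule, so the count is no measure of robustness. Other filters and a fit of only the groups compared left the differences unchanged. Leaving out a library shifts a group mean by less than the spread within that group. It still moved the difference of Tnc in p53KO_3dai against p53KO between 0.32 and 1.74.

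With a pseudocount of 0.1 the 9 genes gave 3 calls for p53KO_G2 against p53KO, and the related genes 14 there and 1 for p53KO_3dai against p53WT_3dai. Array weights gave 1 and 7 in the latter, and quantile normalization gave 4 of the 9 for p53WT_G2 against p53WT. Leaving out 1 library gave 0 to 2 of the 9 and 0 to 7 related genes for p53KO_3dai against p53WT_3dai, and 0 to 1 of the 9 for p53KO_G2 against p53WT_G2. It gave 4 to 6 of the 9 and 14 to 19 related genes for p53KO_G2 against p53KO, and 7 to 15 related genes for p53WT_G2 against p53WT. With the values as deposited, all genes were called higher at 22.1% and lower at 5.39% for p53WT_G2 against p53WT. For p53KO_G2 against p53KO the shares were 22.5% and 7.06%. Calls over all genes moved with the settings too, so nothing is read from these counts. The causes were not tested.

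Over all genes, the calls ran from 1 to 804 for p53KO_3dai against p53WT_3dai and from 0 to 22 for p53KO_G2 against p53WT_G2 under these settings. The replicate numbers did not pair the libraries (correlations of deviations -0.159 to 0.127), and the fit with the replicate number as a block left 7 of the 9 called for p53KO_G2 against p53KO and moved no count over the 9 or the related genes by more than 1.5 times.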
